A study of Mus musculus with 12 samples.

Results

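The Trem2 programme of lipid-associated macrophages (LAM) was followed here through 9 genes chosen by name, Trem2, Tyrobp, Gpnmb, Spp1, Cd9, Cd63, Lgals3, Clec4d and Itgax, out of 31053 genes listed for each library. The choice was made with earlier results of these data known. All 9 were detected in macrophage-like cells of both depots and passed the filter on low counts there. The data were 12 single-cell RNA libraries of the stromal vascular fraction (SVF, the non-adipocyte cells of fat) of male mice, from epididymal (eWAT) and inguinal (iWAT) white adipose tissue, with 2 biological replicates in each of 3 groups per depot. Libraries labelled WT-Veh came from lean C57BL/6J mice and those labelled ob/ob-Veh from leptin-deficient Lepob/Lepob mice, both given vehicle (methylcellulose). Libraries labelled ob/ob-Rosi came from Lepob/Lepob mice given rosiglitazone, an agonist of the nuclear receptor PPARγ, at 30 mg/kg. All mice were 12 weeks old and were gavaged each morning and evening for 3 days, and each library was made from 300 mg of tissue digested for 40 min. No lean mice given rosiglitazone were in these groups. The study's text speaks of the samples as individual mice. Only the stromal pellet was sequenced, so cells that float with the adipocytes after digestion were not captured.

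TREM2 is a lipid-sensing receptor on the surface of macrophages and microglia, and it signals through TYROBP (DAP12), an adaptor with an immunoreceptor tyrosine-based activation motif that engages the kinase SYK. In obese adipose tissue TREM2 marks macrophages that gather around dying adipocytes in crown-like structures and take up lipid, and the same genes mark foamy macrophages and disease-associated microglia. The other genes serve the surface and the lysosome of such cells. Gpnmb and Cd63 encode lysosome-associated membrane proteins, Cd9 a tetraspanin related to CD63, Lgals3 the glycan-binding galectin-3 that is recruited to damaged lysosomes, Spp1 the secreted ligand osteopontin, Clec4d a C-type lectin receptor, and Itgax the integrin subunit CD11c, which dendritic cells carry as well.

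In the GRCm38 annotation the genes lie on 6 chromosomes, with Trem2 at chr17:48346401-48354147, Tyrobp at chr7:30413760-30417585, Gpnmb at chr6:49036546-49070929, Spp1 at chr5:104435118-104441050, Cd9 at chr6:125460266-125494791 on the minus strand, Cd63 at chr10:128900989-128912822, Lgals3 at chr14:47367751-47386160, Clec4d at chr6:123262111-123275265 and Itgax at chr7:128129547-128150657. All are protein coding, and Spp1 overlaps the gene Gm42793 on its own strand, so its counts are less certain. RefSeq promoters (build GRCm38.p6), 250 bases before to 50 bases after each start site, were found for 8 of the 9 genes, all except Tyrobp. Both strands were searched for the letters CACGTG (an E-box), TGANTCA (AP-1), GAGGAAG (the core bound by the myeloid factor PU.1) and AGGTCA (the core letters bound by many nuclear receptors), which 7.15%, 7.81%, 13.6% and 16.3% of 32851 promoters hold. The promoters of Trem2, Gpnmb and Itgax are shown because they were the ones with TGANTCA, and because Trem2 and Gpnmb changed most in the eWAT values below while Itgax kept its own pattern. Capitals mark every match, on either strand.
Trem2 (chr17:48346151-48346450, plus strand): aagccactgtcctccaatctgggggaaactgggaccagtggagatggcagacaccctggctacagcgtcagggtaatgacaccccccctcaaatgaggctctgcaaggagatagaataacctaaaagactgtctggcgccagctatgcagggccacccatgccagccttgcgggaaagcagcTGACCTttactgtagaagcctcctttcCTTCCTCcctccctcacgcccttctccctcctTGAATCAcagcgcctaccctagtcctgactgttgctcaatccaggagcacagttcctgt
Gpnmb (chr6:49036268-49036567, plus strand): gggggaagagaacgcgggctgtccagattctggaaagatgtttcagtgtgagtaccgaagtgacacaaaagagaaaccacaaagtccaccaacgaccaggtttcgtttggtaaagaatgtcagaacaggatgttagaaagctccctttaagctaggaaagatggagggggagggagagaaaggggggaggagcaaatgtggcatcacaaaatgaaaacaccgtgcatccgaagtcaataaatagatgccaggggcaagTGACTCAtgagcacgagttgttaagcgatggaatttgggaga
Itgax (chr7:128129300-128129599, plus strand): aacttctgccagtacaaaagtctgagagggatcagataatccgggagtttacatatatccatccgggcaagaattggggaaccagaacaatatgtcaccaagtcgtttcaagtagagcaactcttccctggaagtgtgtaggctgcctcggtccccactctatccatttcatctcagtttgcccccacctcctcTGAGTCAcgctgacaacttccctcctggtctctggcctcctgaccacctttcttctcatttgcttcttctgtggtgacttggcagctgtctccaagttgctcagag
The TGANTCA match began at position -9 from the start site in Trem2, +9 in Gpnmb and -56 in Itgax. Trem2 alone also held AGGTCA, at -68, besides GAGGAAG at -41, and GAGGAAG was found in the promoters of Spp1, Cd63 and Clec4d. No promoter of the 8 genes held CACGTG. These matches describe the letters of the windows only.

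The filtered libraries held 6472 to 17500 cells each, with a median of 1132 to 4961 unique molecular identifiers (UMIs, 1 per captured transcript) per cell. Pairs of libraries shared at most 99 cell barcodes, or 1.05% of the smaller library. Summed over all cells, eWAT WT-Veh replicate 1 differed less from eWAT ob/ob-Rosi replicate 1 (chi-square per degree of freedom 80.4) than from WT-Veh replicate 2 (152), and the libraries labelled ob/ob-Veh differed from all others in their depot by 300.2 to 1030, against 239.8 (eWAT) and 85.5 (iWAT) between themselves. Some other iWAT pairs differed by values within that range, at 504.8 between the 2 iWAT WT-Veh libraries and 676.9 for the first iWAT WT-Veh library against the second of ob/ob-Rosi, and the 2 eWAT ob/ob-Rosi libraries differed by 258.9. These values were computed on raw UMI sums, so they grow with depth for the same difference in profile. The 2 iWAT ob/ob-Veh libraries had the fewest UMIs. In iWAT WT-Veh replicate 1 no class name could be given to 47.8% of the cells. Lep cannot check the labels, since the Lepob allele still gives a transcript and adipocytes were not captured. The ob/ob-Veh labels stand on the libraries lowest in genes known from LAM of obese fat, while none of the 9 was called by edgeR between the lean WT-Veh and the ob/ob-Rosi libraries, as the values below show. Groups are named by their labels throughout.

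Macrophage-like cells were the clusters that carried C1qa, C1qb, C1qc, Csf1r and other macrophage markers, found with the 9 genes left out of clustering. They numbered 26953 of 57613 cells in eWAT and 19189 of 68482 in iWAT. The 11 macrophage markers summed to between 11754 and 22315 CPM (UMIs scaled to a sum of 1000000 per library and class) over the 12 libraries and all 11 were detected in each. A perivascular-like part (PVM-like) was named from the markers Lyve1, Cd163, Timd4, Folr2, Cbr2, F13a1, Gas6 and Fcna, and a cluster need not carry all of them. The PVM-like part made up 25.1% and 28.7% of the macrophage-like cells in eWAT WT-Veh, 67.0% and 73.9% in ob/ob-Veh and 23.0% and 10.4% in ob/ob-Rosi. In iWAT the PVM-like part was 72.1% and 85.0% in WT-Veh, 97.7% and 98.7% in ob/ob-Veh and 73.5% and 83.1% in ob/ob-Rosi.

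Trem2 was abundant in macrophage-like cells of eWAT from both the WT-Veh and the ob/ob-Rosi libraries and was nearly lost in those labelled ob/ob-Veh. Its level was 1425 and 1435 CPM in WT-Veh, 70.6 and 106.6 in ob/ob-Veh and 1315 and 1798 in ob/ob-Rosi. The ob/ob-Veh libraries lay far below all others. The ob/ob effect, the log2 difference of ob/ob-Veh from WT-Veh, was -4.23 (SE 0.29, adjusted p = 0.000127 by edgeR's quasi-likelihood test over 6 libraries, Benjamini-Hochberg adjusted). The Rosi effect, the log2 difference of ob/ob-Rosi from ob/ob-Veh, was 4.39 (SE 0.30, adjusted p = 8.35e-05). Both effects use the same ob/ob-Veh libraries and so mirror each other in part. Tyrobp, which encodes the signalling partner, moved less. It stood at 2127 and 2377 CPM in WT-Veh, 805.9 and 1073 in ob/ob-Veh and 2168 and 2875 in ob/ob-Rosi, with effects of -1.47 (SE 0.24, adjusted p = 0.00363) and 1.68 (SE 0.25, adjusted p = 0.00186).

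**Figure D1:**
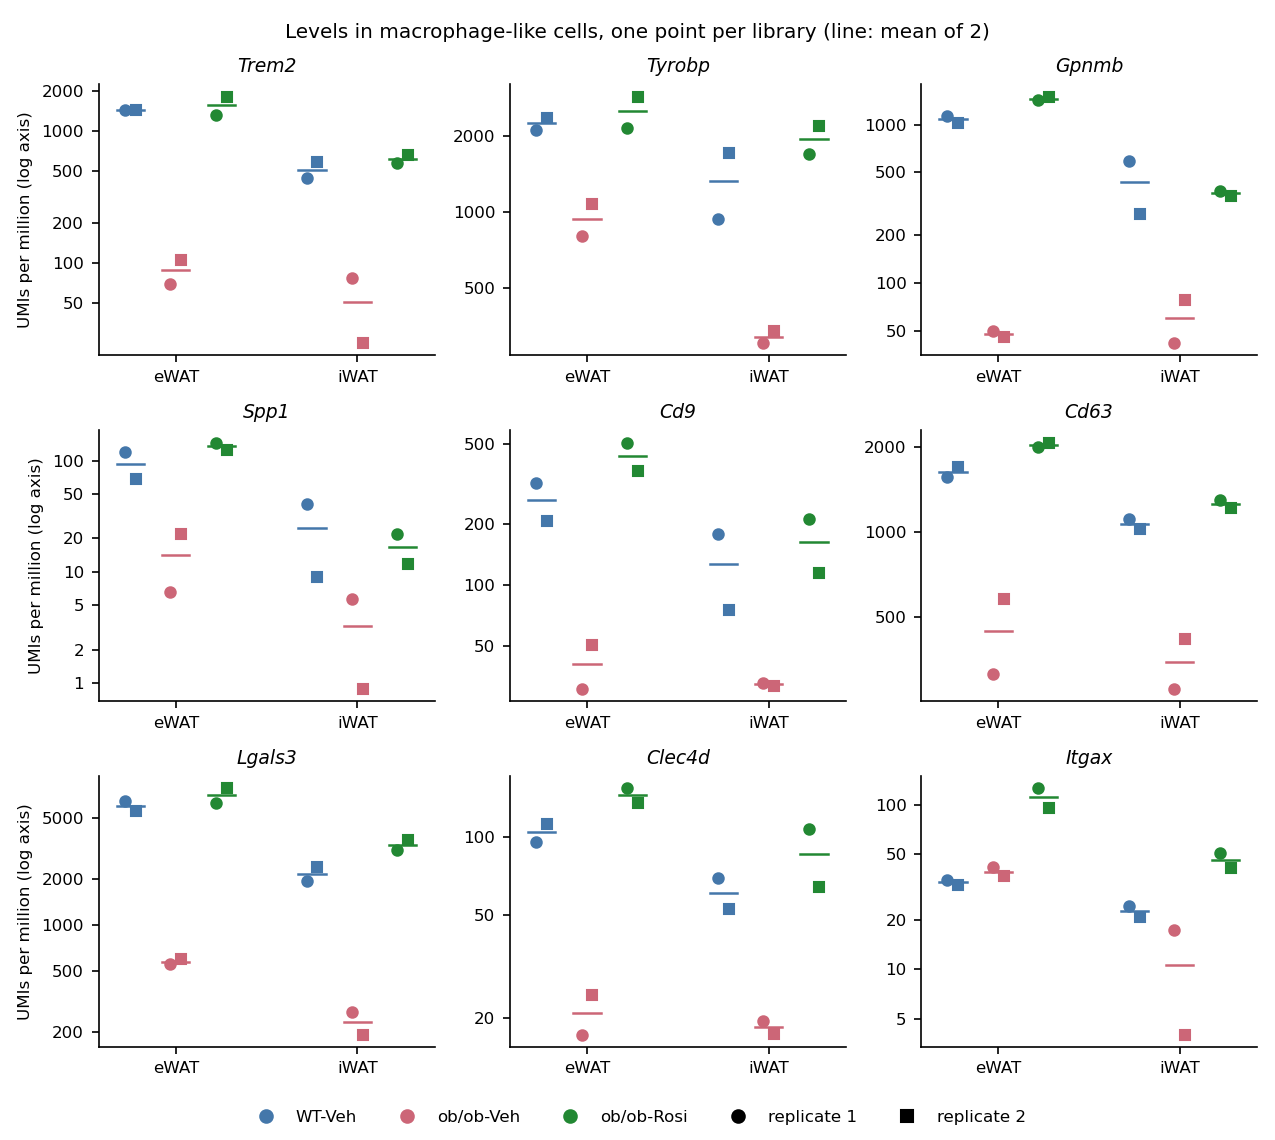
Level of each of the 9 genes in macrophage-like cells, in CPM on a log axis, with 1 point per library and a line at the mean of the 2 libraries of a group. In eWAT the ob/ob-Veh libraries lie below all others for 8 genes (Trem2 at 70.6 and 106.6 against 1315 to 1798), while Itgax in ob/ob-Veh (41.6 and 36.6) does not lie below WT-Veh (35.1 and 32.5).

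The lysosomal and surface genes followed Trem2 in eWAT. Gpnmb, a lysosomal glycoprotein, read 1134 and 1027 CPM in WT-Veh, 49.8 and 45.4 in ob/ob-Veh and 1423 and 1498 in ob/ob-Rosi. Lgals3, the most abundant of the 9, read 6457 and 5528, 554.3 and 599.7, and 6250.3 and 7788. These 2 genes had ob/ob effects of -4.71 (SE 0.25) and -3.58 (SE 0.26), so with Trem2 they were the 3 members that fell most. Cd63 read 1559 and 1697 CPM in WT-Veh, 315 and 579.2 in ob/ob-Veh and 1986 and 2065 in ob/ob-Rosi. Cd9, also a tetraspanin, read 321.2 and 207.7, 30.8 and 50.5, and 506 and 368. The tetraspanins fell by 2.08 (Cd63, SE 0.28) and 2.92 (Cd9, SE 0.33) on the log2 scale. Spp1, which encodes osteopontin, was low throughout, at 118.6 and 67.8 CPM, 6.61 and 22.0, and 145 and 123.6. Clec4d read 96.1 and 112.6, 17.3 and 24.5, and 154.3 and 135.7. For all 8 genes from Trem2 to Clec4d the ob/ob-Veh libraries lay below every other eWAT library.

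Itgax was the exception. Its level was 35.1 and 32.5 CPM in WT-Veh, 41.6 and 36.6 in ob/ob-Veh and 125 and 95.9 in ob/ob-Rosi, so that CD11c transcript was not lower in ob/ob-Veh and was highest in ob/ob-Rosi. The ob/ob effect was 0.01 (SE 0.23, adjusted p = 0.977) and the Rosi effect 1.73 (SE 0.23, adjusted p = 0.0013). This ob/ob value rested on 1 cluster of cells. Without cluster 9, led by Retnla, Lyz1, Ear2 and Ccr2 and drawn to 57.5% from ob/ob-Veh, the ob/ob effect was -1.97 (SE 0.25, adjusted p = 0.000975) and the Rosi effect 3.70 (SE 0.26, adjusted p = 5.55e-05), a setting added after the data were seen. Cluster 9 held 1210 of its 2106 cells in ob/ob-Veh and read 124 CPM of Itgax.

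In all, 8 of the 9 genes were called lower in the ob/ob effect and all 9 higher in the Rosi effect in eWAT, where a call is an adjusted p of at most 0.05 with at least a 1.1-fold change. Over all 13691 genes tested, 28.7% were called in either direction in the ob/ob effect and 30.4% in the Rosi effect, so a call by itself was common. The median log2 change was -2.92 for the 9 genes against 0.01 for all genes in the ob/ob effect, and 3.49 against -0.02 in the Rosi effect. Since the 9 genes were chosen with earlier results of these data known, these medians are not independent evidence. Other classes' markers moved with these groups. In macrophage-like cells the 8 PVM markers summed to 1394 to 2816 CPM in WT-Veh and ob/ob-Rosi and to 5932 and 7488 in ob/ob-Veh, all 8 detected in each library. The 8 monocyte or NPVM (non-perivascular macrophage) markers summed to 153 to 262 against 756 and 1025 (7 of 8 detected in ob/ob-Veh), the 9 dendritic cell markers to 12.6 to 30.8 against 189 and 227, and the 6 neutrophil markers to 18.8 to 40.0 against 267 and 375. Their part in the results was not tested.

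The ob/ob-Rosi and WT-Veh libraries of eWAT did not differ in any of the 9 genes by the test. All 9 differences were positive, from 0.17 for Trem2 (SE 0.26) and 0.21 for Tyrobp (SE 0.24) to 0.75 for Cd9 (SE 0.30) and 1.74 for Itgax (SE 0.23, adjusted p = 0.147). Over all genes 0% were called, while 365 genes and 3 members had an unadjusted p under 0.05 by edgeR, and DESeq2 called 15 genes, Itgax among them. Group sizes of 2 limit what this test can find.

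In iWAT all 9 genes read lowest in the ob/ob-Veh libraries, but not every difference passed the test. Trem2 read 440.4 and 576.5 CPM in WT-Veh, 77.8 and 25.2 in ob/ob-Veh and 570.8 and 657.5 in ob/ob-Rosi. Lgals3 read 1945 and 2385, 272.3 and 193.7, and 3081 and 3609. The ob/ob effects of these genes were -3.47 (SE 0.54, adjusted p = 0.0104) and -3.40 (SE 0.37, adjusted p = 0.00317), and the Rosi effects 3.76 (SE 0.55) and 4.05 (SE 0.38). Tyrobp read 938.2 and 1718 CPM in WT-Veh, 301.7 and 336.7 in ob/ob-Veh and 1701 and 2210.1 in ob/ob-Rosi, with an ob/ob effect of -2.26 (SE 0.39). Gpnmb differed within the WT-Veh group, at 591.2 and 274.1, with 41.9 and 78.5 in ob/ob-Veh and 379.7 and 355.6 in ob/ob-Rosi. Cd63 read 1109 and 1026, 279.2 and 417.2, and 1297 and 1218. For these 5 genes, too, both ob/ob-Veh libraries lay below the other 4.

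The remaining genes were low in iWAT and varied more. Spp1 read 40.8 and 9.07 CPM in WT-Veh, 5.67 and 0.89 in ob/ob-Veh and 22.0 and 11.8 in ob/ob-Rosi, with as few as 4 UMIs in a library. Neither its ob/ob effect of -2.95 (SE 0.86, adjusted p = 0.0574) nor its Rosi effect of 2.48 (SE 0.85, adjusted p = 0.0715) was called by edgeR without a replicate block. With the block Spp1 was called in the Rosi effect. Cd9 read 178 and 75.1, 33.0 and 31.9, and 211 and 115, and Clec4d 69.4 and 52.7, 19.4 and 17.4, and 108 and 64.1. Itgax read 24.2 and 20.7, 17.4 and 4.02, and 51.1 and 41.1, with an ob/ob effect of -1.20 (SE 0.54, adjusted p = 0.168) that was not called and a Rosi effect of 2.27 (SE 0.54, adjusted p = 0.024). WT-Veh replicate 1, the library with the most unnamed cells, had the highest Spp1 and Gpnmb of the 6 iWAT libraries. Macrophage-like cells were 7.37% of its cells (1257), against 35.1% (3449) in WT-Veh replicate 2. The alternative that chose macrophages cell by cell took 6409 cells of WT-Veh replicate 1.

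In iWAT, without a replicate block, 7 of the 9 genes were called lower in the ob/ob effect, all except Spp1 and Itgax, and 8 higher in the Rosi effect, all except Spp1. Over all 13080 genes tested 14.0% and 21.6% were called. The median log2 change of the 9 genes was -2.26 against 0.01 for all genes, and 2.54 against -0.06. As in eWAT, these medians are not independent evidence. Most calls of the 9 genes were lost when either ob/ob-Veh library was left out, with 1 library then left in the group. The share of all genes called in those fits is not given here, so this loss is not read as a result about the members. The sizes stayed large in these fits. The ob/ob effect of Trem2 was -4.59 without ob/ob-Veh replicate 1 (SE 0.48) and -2.85 without replicate 2 (SE 0.43), and that of Lgals3 was -3.74 (SE 0.49) and -3.13 (SE 0.47). The 7 markers of adipose progenitors (APC) summed to 330 to 1040 CPM in macrophage-like cells of WT-Veh and ob/ob-Rosi and to 2898 and 3037 in ob/ob-Veh, all 7 detected in each library, and the part of this in the results was not tested. Against WT-Veh, ob/ob-Rosi differed by -0.47 (Spp1, SE 0.73) to 1.07 (Itgax, SE 0.50), with no member called, where 0% of all genes were called and 559 genes and 0 members had an unadjusted p under 0.05 by edgeR. DESeq2 called 55 genes there and none of the 9.

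**Figure D2:**
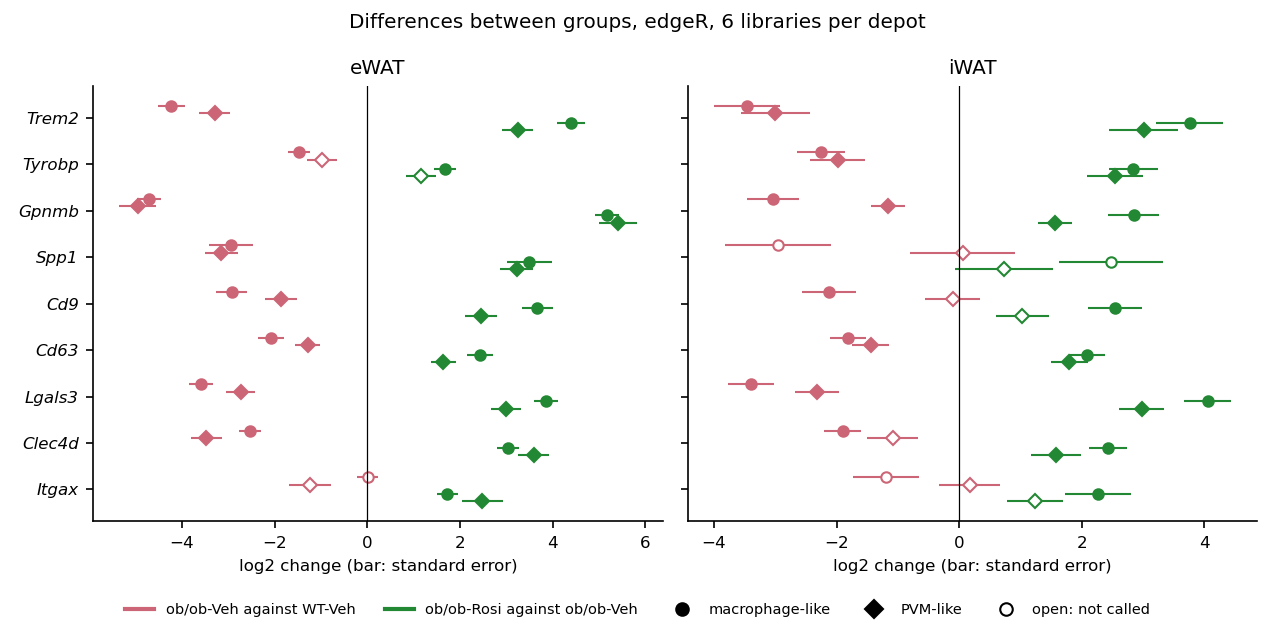
Log2 differences between groups of libraries for the 9 genes in macrophage-like and PVM-like cells, by edgeR over the 6 libraries of a depot, with bars for the standard error and open symbols where the gene was not called. ob/ob-Veh against WT-Veh lies left of 0 and ob/ob-Rosi against ob/ob-Veh right of 0 for most genes (Trem2 at -4.23 and 4.39 in eWAT), and Itgax in eWAT macrophage-like cells lies at 0.01 and 1.73.

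Whether the depots differed was tested as an interaction over the 12 libraries. The labels do not say whether same-numbered eWAT and iWAT libraries came from the same mice, and the fit treated all 12 as independent. By edgeR no member was called for the ob/ob effect, where 0.898% of 14148 genes were called, nor for the Rosi effect, where 0% were called and 1632 genes had an unadjusted p under 0.05. Gpnmb came nearest. Its ob/ob effect was less negative in iWAT by 1.67 (SE 0.48, adjusted p = 0.136), and its Rosi effect was smaller in iWAT by a log2 difference of -2.33 (SE 0.48, adjusted p = 0.0849). These 2 differences of Gpnmb were called by DESeq2 (adjusted p = 0.0217 and 0.000428), and by edgeR without the filter on low counts (0.00946 and 6.18e-05) and without iWAT WT-Veh replicate 1 (0.0376 and 0.0425). The Rosi difference was also called by edgeR without iWAT WT-Veh replicate 2 (0.0445) and with the replicate block (0.0374). The depot difference of the ob/ob effect was 0.75 (SE 0.62) for Trem2 and 0.18 (SE 0.42) for Lgals3, so intervals of about this width include differences of either sign.

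Changes in which macrophages were present and changes within a macrophage type both enter these sums, so the PVM-like part was fitted on its own. Trem2 fell there as well. In eWAT it read 671.2 and 782.2 CPM in WT-Veh, 74.7 and 85.6 in ob/ob-Veh and 480.6 and 901.2 in ob/ob-Rosi, with effects of -3.29 (SE 0.34, adjusted p = 0.00125) and 3.25 (SE 0.34, adjusted p = 0.00162). Clec4d read 73.4 and 118, 6.49 and 12.0, and 100.3 and 105, and Cd63 1164 and 1312, 451 and 651, and 1419 and 1703. Gpnmb had an ob/ob effect of -4.95 (SE 0.40), from 133 and 120.0 CPM to 2.80 and 5.87. In all, 7 genes were called lower (not Tyrobp and Itgax) and 8 higher (not Tyrobp), where 3.44% and 2.76% of the 11182 genes tested were called. With the replicate block, and likewise by DESeq2, 8 were called lower and 9 higher. Shares of all genes called in those fits are not given here, so these counts are not read as a result about the members. The edgeR calls without the block include Gpnmb, Spp1, Cd9 and Lgals3, and in the Rosi effect Itgax. The PVM-like levels of these genes did not lie above those of endothelial cells in every library, as given below. Different clusters held the PVM-like cells of the groups. Cluster 7, with 3691 cells, drew 97.8% from ob/ob-Veh, and cluster 2, with 4762 cells, drew 2.65% from it. Without ob/ob-Rosi replicate 2, which leaves a lone library in that group, the Rosi effect called fewer of the 9 genes.

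Free RNA limits the PVM-like values of some of the genes. Endothelial-like cells (EC-like), which should lack most of these macrophage transcripts, carried 279 and 282 CPM of Gpnmb in eWAT WT-Veh, above the 133 and 120.0 of PVM-like cells in the same libraries, and 11.5 and 6.03 in ob/ob-Veh, again above the PVM-like level. For Lgals3 they carried 1723 and 1473 against 1460 and 1641 in PVM-like cells, and for Spp1 27.2 and 20.8 against 13.1 and 14.1. Over the 6 eWAT libraries the PVM-like level lay above the EC-like level in 0 for Gpnmb, Cd9 and Itgax, in 2 for Spp1 and in 4 for Lgals3. The PVM-like level relative to the EC-like level ran from 0.243 to 0.974 for Gpnmb, 0.191 to 0.775 for Itgax, 0.369 to 2.56 for Spp1 and 0.847 to 3.24 for Lgals3. Since none of these 4 genes lay above the EC-like level in every library, no PVM-like expression was read from them. For Cd9 the EC-like level is no measure of free RNA, since EC-like cells carried more Cd9 per UMI of C1qb, another macrophage transcript, than macrophage-like cells did, by a median ratio of 3.07 in eWAT and 22.4 in iWAT. For Cd63 that ratio was 1.765 and 4.48. Without a measure of free RNA for Cd9, no PVM-like expression was read from Cd9 either. Trem2 in EC-like cells, at 379.1 and 337.2, and Clec4d, at 23.2 and 19.4, lay below the PVM-like levels, in 6 of 6 libraries each, as did Tyrobp and Cd63, though for Trem2 the lowest ratio of PVM-like to EC-like level was 1.36. EC-like Trem2 was 8.06 and 8.64 CPM in ob/ob-Veh and 354.4 and 358.4 in ob/ob-Rosi, so free RNA moved with the groups in the same direction, and its part in the PVM-like results was not tested.

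In PVM-like cells of iWAT, Trem2 read 225.8 and 359.8 CPM in WT-Veh, 61.6 and 19.7 in ob/ob-Veh and 242.4 and 346 in ob/ob-Rosi. Lgals3 read 607.7 and 870.3, 191 and 141, and 1050 and 1272. Of the 9 genes, 5 (Trem2, Tyrobp, Gpnmb, Cd63 and Lgals3) were called lower, and these and Clec4d higher, where 5.97% and 11.1% of 12302 genes were called. Over the 6 iWAT libraries the PVM-like level lay above the EC-like level in 4 for Gpnmb (lowest ratio 0.12) and in 5 for Lgals3 (lowest ratio 0.858), so no PVM-like expression was read from these 2 genes, and in 6 for Trem2, Tyrobp, Cd63 and Clec4d. It lay above in 4 for Spp1 and Itgax and in 0 for Cd9, and none of these 3 was called. The ob/ob effect was -3.00 (SE 0.56) for Trem2, -1.99 (SE 0.45) for Tyrobp and -1.45 (SE 0.31) for Cd63. Different clusters held the PVM-like cells of the groups here too. Cluster 5, with 4980 cells, drew 97.5% from ob/ob-Veh, and clusters 1 and 7, with 7368 and 3955 cells, drew 0.271% and 1.47% from it. Again most calls were lost when either ob/ob-Veh library was left out, which leaves a lone library in the group. Some were also lost in the ob/ob effect without WT-Veh replicate 2 or either ob/ob-Rosi library, and most in the Rosi effect without ob/ob-Rosi replicate 2. These losses are not read as a result about the members.

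Macrophage clusters, found without the 9 genes, differed widely in them, which is given as a description. In eWAT cluster 1, with 5385 cells led by Mmp12, Cd68 and Ctsd besides members, had the highest Trem2 (2135 CPM), Gpnmb (2354) and Lgals3 (10095). It drew 45.6% of its cells from WT-Veh, 53.9% from ob/ob-Rosi and 0.557% from ob/ob-Veh. Cluster 12, led by the proliferation genes Mki67, Top2a and Birc5, had 1498 CPM of Trem2 and 7582 of Lgals3, so dividing macrophages of eWAT carried these genes too. Clusters 3 and 4 had 1318 and 1043 CPM of Trem2. The ob/ob-Veh clusters were low, at 84.6 CPM in PVM-like cluster 7 and 189 in cluster 9. Itgax went its own way, at 128 CPM in cluster 1 and 124 in cluster 9, which had little Trem2 or Gpnmb (91.9 CPM). Cluster 24, with 139 cells led by Prg4, Saa3 and Cxcl13, had the highest Cd9 (654 CPM) and Clec4d (349) beside 201 of Trem2, 73.4 of Gpnmb and 2.72 of Itgax, so the genes did not all move together. In iWAT cluster 10, with 2334 cells, had 1306 CPM of Trem2, 1184 of Gpnmb and 119 of Itgax, and PVM-like cluster 5, drawn to 97.5% from ob/ob-Veh, had 42.4, 15.8 and 3.66. The iWAT cluster with proliferation genes, cluster 19, read lower than cluster 10, at 506 CPM of Trem2, 382 of Gpnmb and 44.2 of Itgax.

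**Figure D3:**
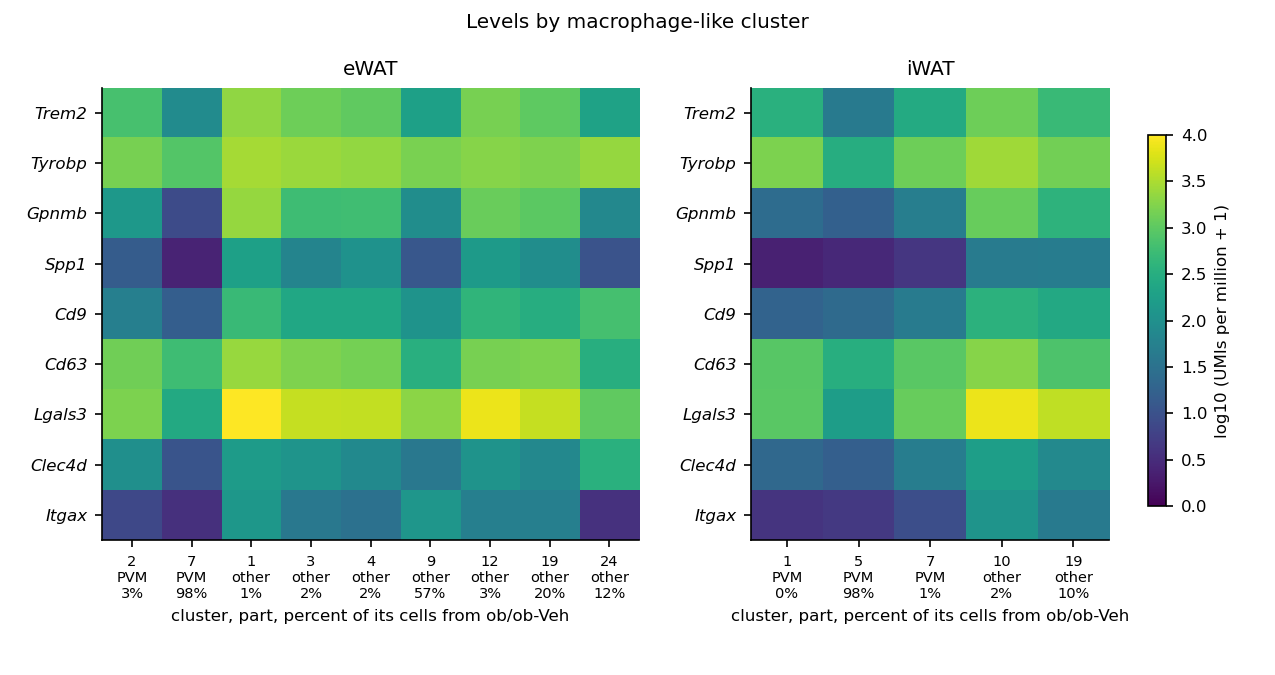
Level of the 9 genes in each macrophage-like cluster, as the log10 of CPM plus 1, with the part and the percent of cells from ob/ob-Veh under each cluster number. Cluster 1 of eWAT and cluster 10 of iWAT are bright for Trem2, Tyrobp, Gpnmb, Cd63 and Lgals3. For Spp1 and Itgax they are less bright, at 183 and 128 CPM in eWAT and 44.9 and 119 in iWAT. Clusters 7 (eWAT) and 5 (iWAT), drawn almost wholly from ob/ob-Veh, are dark for Gpnmb, Spp1 and Itgax.

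The share of cells with a Trem2 UMI was also lowest in ob/ob-Veh. Each cell was thinned to 700 UMIs so that depth was equal. A Trem2 UMI was then seen in 51.3% ± 1.28 (SD, n = 2) of macrophage-like cells in eWAT WT-Veh, 4.40% ± 1.31 in ob/ob-Veh and 51.0% ± 11.2 in ob/ob-Rosi. Without thinning the shares were 85.0% ± 8.62, 19.3% ± 5.08 and 83.4% ± 14.7. The share of EC-like cells with a Trem2 UMI after thinning, a measure of free RNA, was 18.0% ± 1.82, 0.494% ± 0.191 and 16.3% ± 1.24. In iWAT the macrophage-like shares were 23.7% ± 3.41, 2.47% ± 1.40 and 22.9% ± 1.62, and the EC-like shares 5.53% ± 5.29, 0.628% ± 0.434 and 2.94% ± 1.36. The macrophage-like share thus lay above the EC-like share in every group.

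UMIs of several of the genes were seen together in single macrophage-like cells. After thinning, 39.2% and 39.7% of cells in eWAT WT-Veh had at least 1 UMI of 4 or more of the 9 genes, against 0.674% and 1.72% in ob/ob-Veh and 39.6% and 55.3% in ob/ob-Rosi. In iWAT these shares were 14.1% and 10.4%, 0.349% and 0.185%, and 14.8% and 12.8%. In the WT-Veh and ob/ob-Rosi libraries of eWAT the same share was 6.90% to 10.2% in EC-like and 8.78% to 16.8% in NKT-like (T and natural killer) cells, and in iWAT 0.0535% to 3.01% and 0.377% to 4.18%. By part, it was 11.3% to 27.7% in PVM-like and 47.6% to 58.5% in other macrophage-like cells of these eWAT libraries. In iWAT these shares were 1.3% to 5.5% and 43.9% to 52.3%. The PVM-like range thus overlapped that of NKT-like cells in both depots. Cells with a Trem2 UMI were set against cells without one in the WT-Veh and ob/ob-Rosi libraries. Gpnmb was seen in 34.1% to 42.1% of Trem2-positive and 18.4% to 25.8% of other eWAT macrophage-like cells, higher in 4 of 4 libraries, and in 14.0% to 31.1% against 3.37% to 10.4% in iWAT. Clec4d was higher in 3 of 4 eWAT libraries, at 5.45% to 8.30% against 5.32% to 7.72%, so that in eWAT it was spread nearly evenly over cells with and without Trem2. In iWAT it was seen in 4.12% to 8.73% of Trem2-positive and 1.61% to 4.10% of other cells, higher in 4 of 4 libraries. These pooled differences mix PVM-like and other macrophage-like cells. Within PVM-like cells of eWAT, Gpnmb was higher in Trem2-positive cells in 2 of 4 libraries, at 7.77% to 10.6% against 7.57% to 13.3%, and in iWAT in 4 of 4, at 1.82% to 3.96% against 1.29% to 3.03%. Within the other macrophage-like cells of eWAT it was higher in 4 of 4 libraries, at 40.2% to 44.9% against 23.0% to 27.9%, and in those of iWAT in 4 of 4. Other genes were less even within a part. In PVM-like cells Tyrobp and Itgax were higher in 2 of 4 eWAT libraries each, and in iWAT Cd63 and Spp1 in 2 of 4 and Itgax in 1 of 4. In the other macrophage-like cells Clec4d was higher in 2 of 4 eWAT libraries and Spp1 in 2 of 4 of iWAT. Free RNA can enter all of these shares, and its part in them was not tested.

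In eWAT most UMIs of the 9 genes, over all groups, came from macrophage-like cells. These were 46.8% of cells and held 91.2% of Trem2, 88.8% of Gpnmb and 88.4% of Lgals3 UMIs, but 65.8% of Cd63 and 54.4% of Cd9. APC-like cells held another 28.4% of Cd63 and 31.1% of Cd9. In the eWAT ob/ob-Veh libraries, macrophage-like cells held 24.3% of Gpnmb, 24.7% of Cd63 and 6.95% of Cd9 UMIs, and APC-like cells 66.9%, 65.8% and 58.9%. In iWAT macrophage-like cells held 80.4% of Trem2 UMIs but 46.9% of Spp1, 45.8% of Cd63 and 26.6% of Cd9, and APC-like cells 45.1% of Cd9, 40.4% of Cd63, 23.3% of Gpnmb and 22.5% of Spp1. Unnamed iWAT cells held 31.9% of Itgax.

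Free RNA from 1 source keeps the ratio of its genes, so UMIs of each gene per UMI of C1qb, a complement gene of macrophages, were set against the same ratio in the macrophage-like cells of the same library. For Trem2 the median ratio in eWAT was 1.06 in EC-like, 0.952 in NKT-like, 1.08 in B-like, 0.9595 in dendritic-like (DC-like) and 1.26 in APC-like cells, near the value of 1 that macrophage RNA alone would give. In iWAT the Trem2 median was 0.907 in NKT-like, 1.17 in B-like and 1.30 in APC-like cells. It was 1.37 in EC-like cells, with a highest value of 5.38, and 1.40 in monocyte-like or NPVM-like cells, with a highest value of 3.17. Clec4d read 1.00 in EC-like and 1.18 in NKT-like cells of eWAT, but 9.40 in monocyte-like or NPVM-like cells of eWAT, 11.9 in those of iWAT and 49.2 in neutrophil-like cells, so myeloid cells other than macrophages carried more Clec4d than C1qb would give. Per UMI of Csf1r, a receptor that monocytes carry too, Clec4d read 3.75 and 3.13 in monocyte-like or NPVM-like cells of eWAT and iWAT and 42.3 in neutrophil-like cells. The tetraspanins exceeded macrophage RNA most in APC-like cells, at 18.7 for Cd9 and 13.8 for Cd63 in eWAT and 50.9 and 20.1 in iWAT. Itgax read 15.2 in DC-like and 6.53 in NKT-like cells of eWAT, and Tyrobp 5.40 in DC-like, 5.06 in monocyte-like or NPVM-like and 2.48 in NKT-like cells. Per UMI of Csf1r, Tyrobp read 4.03, 1.88 and 2.70 in these 3 classes. In iWAT APC-like cells Gpnmb read 11.6 and Spp1 12.96, against 2.58 and 1.48 in eWAT APC-like cells. These medians run over all groups, and the ob/ob-Veh libraries, with least macrophage RNA, gave the highest ratios for Gpnmb in eWAT APC-like cells, 48.3 and 89.7 at 62.2 and 100.8 CPM.

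Mesothelial-like cells, which line the serosal surface of eWAT, were the exception for Trem2. In the other eWAT classes with C1qb UMIs to compare, the ratio reached at most 2.95, in monocyte-like or NPVM-like cells, where the median per UMI of Csf1r was 0.446. In WT-Veh and ob/ob-Rosi their ratio of Trem2 to C1qb was 1.09 to 1.80 of that in macrophage-like cells, at 164 to 368 CPM. In ob/ob-Veh it was 60.4 and 52.6, at 174 and 142 CPM, above the 70.6 and 106.6 of the macrophage-like cells of the same libraries and the 8.06 and 8.64 of EC-like cells. These levels rest on 752 and 503 Trem2 UMIs in 596 and 492 mesothelial-like cells, of which 8.72% and 8.54% had a Trem2 UMI after thinning. In the ob/ob-Veh libraries of eWAT, mesothelial-like cells held 32.7% of all Trem2 UMIs and macrophage-like cells 59.6%, against 0.394% and 92% in WT-Veh. The ratio to C1qb was also high there for Gpnmb, at 18.0 and 38.8, and for Cd9, at 213 and 256. Per UMI of Csf1r the ratios in these 2 libraries were 36.2 and 26.8 for Trem2, 10.8 and 19.8 for Gpnmb and 127 and 131 for Cd9. This pattern was seen after the values were known, and no test was made of it. In iWAT 0 cells were named mesothelial-like.

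**Figure D4:**
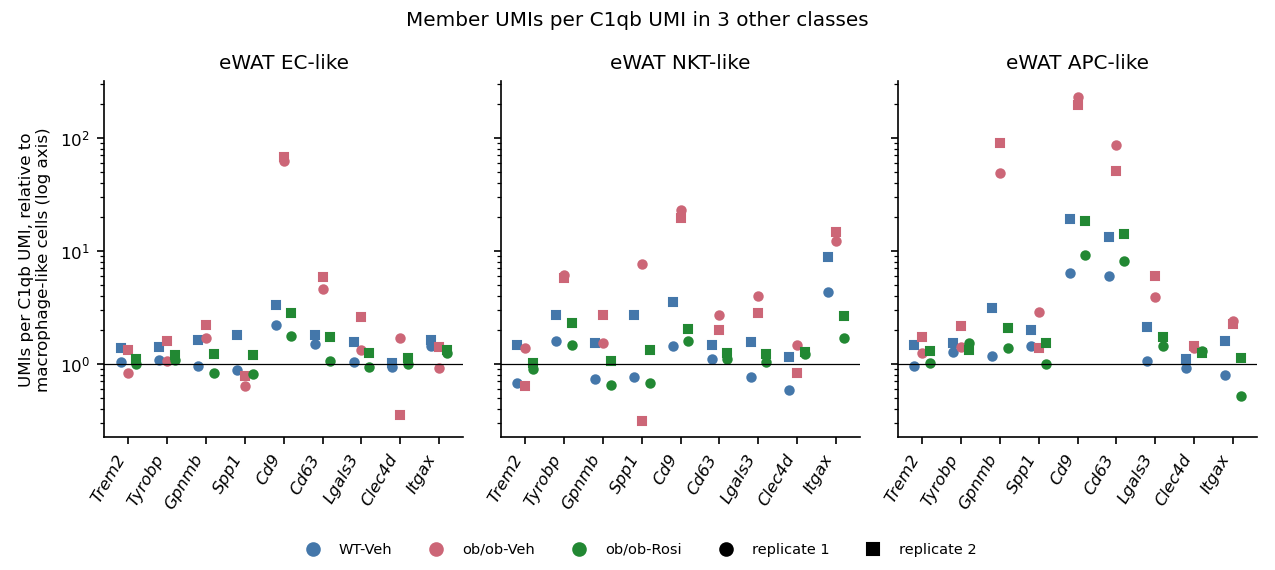
UMIs of each gene per UMI of C1qb in 3 other classes of eWAT, relative to the macrophage-like cells of the same library on a log axis, with 1 point per library and a line at 1. Trem2 lies near 1 in all 3 classes, while Cd9 and Cd63 lie far above it in APC-like cells (medians 18.7 and 13.8).

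**Figure D5:**
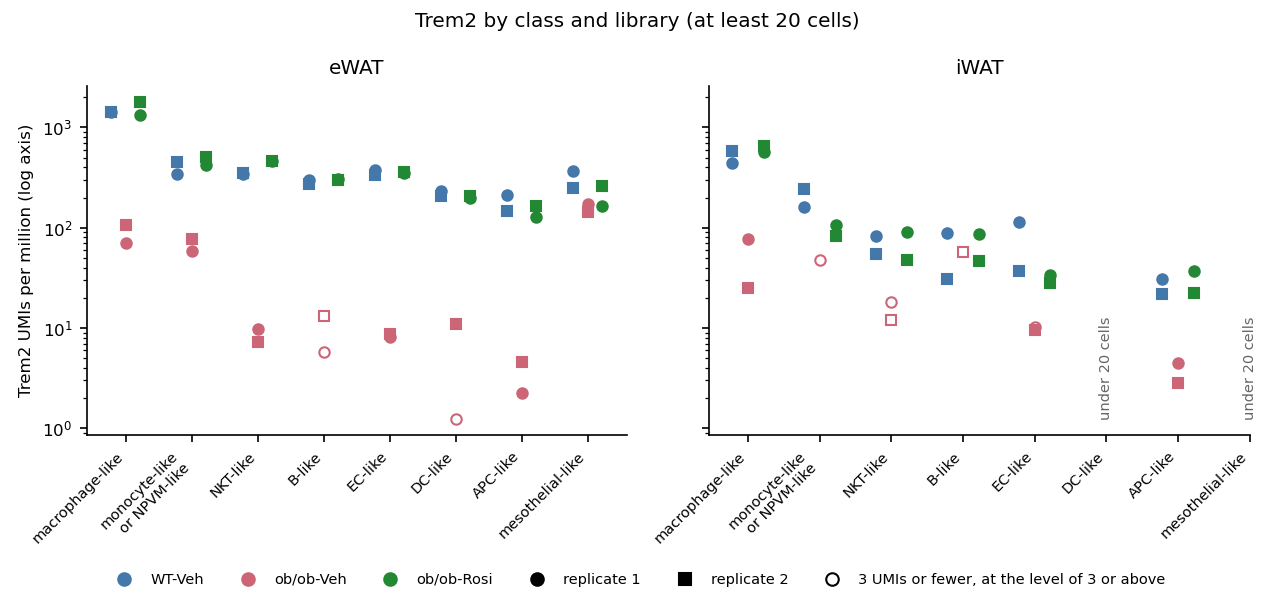
Trem2 in CPM, on a log axis, in each class with at least 20 cells, with 1 point per library and open symbols for 3 UMIs or fewer, drawn at no less than the level of 3. In eWAT the ob/ob-Veh points lie far below the others in all classes shown except mesothelial-like cells (174 and 142), and in WT-Veh macrophage-like cells have the highest level (1425 and 1435).

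Summed over all cells of a library, as bulk RNA would be, 8 of the 9 genes were called in the same direction in eWAT as in macrophage-like cells and Itgax differed in the ob/ob effect, where fewer cells of a type and less RNA per cell cannot be told apart. Trem2 read 1110.2 and 915.1 CPM in WT-Veh, 35.0 and 49.5 in ob/ob-Veh and 930.4 and 1177 in ob/ob-Rosi. All 9 genes were called lower in the ob/ob effect and all 9 higher in the Rosi effect, where 21.3% and 20.4% of 15845 genes were called. Cd9 and Itgax changed least, with ob/ob effects of -0.97 (SE 0.29, adjusted p = 0.0453) and -0.80 (SE 0.24, adjusted p = 0.0483). The latter was 0.01 and not called in macrophage-like cells. In iWAT 4 genes, Trem2, Tyrobp, Lgals3 and Clec4d, were called in each direction, where 5.64% and 0.989% of 15779 genes were called. Cd9 was not called there, at 126 and 114.0 CPM in WT-Veh and 98.6 and 153 in ob/ob-Veh, whose ranges overlap. In iWAT the calls were lost when any 1 of the ob/ob-Veh or ob/ob-Rosi libraries was left out, which leaves a lone library in the group. Without either WT-Veh library more of the 9 genes were called in the Rosi effect. Shares of all genes called in these fits are not given here, so neither change is read as a result about the members.

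Counts in the 4 lists that follow are read against all genes tested in macrophage-like cells. In eWAT 13.5% of all genes rose and 15.2% fell in the ob/ob effect, and 15.8% rose and 14.6% fell in the Rosi effect. In iWAT these shares were 6.48% and 7.49%, and 11.6% and 9.93%. Of 17 genes of TREM2 and TYROBP signalling, all tested in macrophage-like cells of eWAT, 2 rose in the ob/ob effect, Malt1 (1.39, SE 0.32) and the PI3-kinase subunit Pik3cd (0.87, SE 0.24), and 1 fell, the exchange factor Vav1 (-0.74, SE 0.25), with a median log2 change of 0.13 against 0.01 for all genes. In the Rosi effect Pik3cd fell (-0.79, SE 0.24) and no gene rose. In iWAT Pik3cd rose (0.88, SE 0.24) and Hcst, which encodes the DAP10 adaptor, fell (-1.18, SE 0.22) in the ob/ob effect, and both turned in the Rosi effect (-1.19, SE 0.24, and 1.56, SE 0.22).

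Of 9 genes of the TREM family, its ligands and its sheddases, 8 were tested in eWAT macrophage-like cells. In the ob/ob effect the lipoprotein genes split, with Clu (clusterin) up by 2.68 (SE 0.42) and Apoe down at -1.87 (SE 0.22). Clu, at 2.27 and 1.60 CPM in WT-Veh, 8.84 and 20.5 in ob/ob-Veh and 1.24 and 1.28 in ob/ob-Rosi, was among the leading genes of the mesothelial-like cluster. Mesothelial-like cells were 6.50% and 6.35% of the cells in eWAT ob/ob-Veh against 0.507% to 1.08% in the other eWAT libraries. The 6 mesothelial markers summed to 24.5 and 28.7 CPM in macrophage-like cells of ob/ob-Veh against 2.82 to 4.77 in the others, all 6 detected in each ob/ob-Veh library, and their part in the Clu values was not tested. Adam10, a protease that sheds TREM2, rose by 0.87 (SE 0.28), and Treml1 fell (-2.16, SE 0.67) from levels of 0.715 and 1.46 CPM. In the Rosi effect Treml1 (2.83, SE 0.65) and Apoe (1.35, SE 0.22) rose and Clu (-3.28, SE 0.43), Trem1 (-2.21, SE 0.57) and Adam10 (-0.88, SE 0.28) fell. In iWAT 5 were tested and 0 called by edgeR in either effect, with 1 and 3 at an unadjusted p under 0.05 in the ob/ob and Rosi effects and 1 called by DESeq2 in each.

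Of 26 other genes of the LAM state, all tested, 21 fell and 0 rose in the eWAT ob/ob effect and 21 rose and 0 fell in the Rosi effect, with median log2 changes of -1.88 and 2.03. The largest falls were those of the lysosomal acid phosphatase Acp5 (-4.19, SE 0.36), the cathepsin Ctsk (-4.12, SE 0.24) and the vacuolar ATPase subunit Atp6v0d2 (-4.10, SE 0.26), and the largest rises those of Ctsk (4.38, SE 0.24), Acp5 (4.26, SE 0.36) and the fatty acid binding protein Fabp5 (4.10, SE 0.24). In each eWAT effect 5 were not called. In iWAT 14 fell in the ob/ob effect and 11 rose in the Rosi effect, with 12 and 15 not called, led in each direction by Fabp5 (-4.24, SE 0.29, and 4.63, SE 0.29), Acp5 (-4.33, SE 0.32, and 3.51, SE 0.31) and Atp6v0d2 (-3.36, SE 0.36, and 3.35, SE 0.35). This list overlaps what earlier results of these data had shown, so its direction is not independent evidence.

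Of 26 relatives and partners of the 9 genes tested in eWAT, 5 rose and 8 fell in the ob/ob effect. The integrin Itgal (2.08, SE 0.46), the lectin Clec4e (1.51, SE 0.27), which pairs with CLEC4D, and the tetraspanin Cd81 (1.28, SE 0.23) rose, and the integrin Itgb5 (-1.92, SE 0.24) and the lectin Clec4a2 (-1.24, SE 0.27) fell. Itgad, at 1.69 and 2.31 CPM in WT-Veh, had 0 UMIs in both ob/ob-Veh libraries, which allows up to 0.239 and 0.228 CPM by the limit of 3 counts, and read 0.353 and 0.38 in ob/ob-Rosi. In the eWAT Rosi effect 8 rose, among them Itgb5 (2.05, SE 0.24) and Clec4a2 (1.49, SE 0.27), and 4 fell, among them Itgal (-1.39, SE 0.44), the galectin Lgals9 (-0.87, SE 0.22) and Clec4e (-0.83, SE 0.27). In iWAT 1 of 25 rose in the ob/ob effect, Lgals9 (1.21, SE 0.33), and 4 fell, among them the adaptor Fcer1g (-1.37, SE 0.37), Clec4a2 (-1.29, SE 0.30) and Clec4n (-1.001, SE 0.26). In the iWAT Rosi effect Clec4a2 (1.92, SE 0.30), Fcer1g (1.81, SE 0.38) and Clec4n (1.58, SE 0.26) were among 4 that rose, and Lgals9 (-1.11, SE 0.32) and Lgals3bp (-1.10, SE 0.25) fell.

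Across the 12 macrophage-like sums, which share cells, libraries and the low ob/ob-Veh values, 784 of 5881 genes correlated with Trem2 by more than r = 0.9 on log2 CPM. Among the other members r was highest for Lgals3 (0.989, first of all genes), then 0.967 for Clec4d, 0.960 for Cd63, 0.937 for Gpnmb, 0.936 for Cd9, 0.931 for Tyrobp, 0.889 for Spp1 and 0.760 for Itgax. Within eWAT Itgax reached 0.521 and within iWAT 0.919. Outside the 9 genes the nearest patterns were those of the biliverdin reductase Blvra (0.986), Atp6v0d2 (0.985), Med29 and Rnh1 (both 0.984), Cyb5r3 (0.984), Creg1 (0.984), Syngr1 (0.983), Cd68 (0.981), Spsb2 (0.981) and Timm10 (0.980). Cd68 is a lysosomal marker of macrophages, and Creg1 encodes a lysosomal glycoprotein. Cd68 was also among the markers that named macrophage-like cells. The ob/ob effect of Cd68 was -1.88 (SE 0.26) in eWAT and -1.65 (SE 0.25) in iWAT.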

How the data were processed

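The authors sequenced 10x 3' v3.1 libraries and, per the labels, used bcl2fastq 2.19.1.403 and Cell Ranger 3.0.2 with the mm10 genome, and they deposited raw UMI counts per gene and cell. From these deposited counts, cells with 700 to 22000 UMIs, 200 to 6000 genes and under 25% mitochondrial counts were kept, clustered per depot without the 9 genes (scanpy 1.11.5, 2000 variable genes, 25 principal components, 20 neighbours, Leiden) and named from marker lists. A class needed 3 markers, and details of this naming rule were adjusted after the clusters were seen and before groups were compared. Doublets were kept, and removing those that Scrublet marked was an alternative. In Scrublet, 0% were marked in eWAT WT-Veh replicate 2, where the top 5.18% were removed instead, and 24.5% in iWAT WT-Veh replicate 1.

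UMIs were summed per library and class and tested with edgeR 4.0.16 (quasi-likelihood, TMM, filterByExpr, no replicate block, R 4.3.3) over the 6 libraries of a depot, with 3 residual degrees of freedom, or over 12 for the interaction, with 6. Adjusted p-values run over all genes tested. With 2 libraries against 2, an exact permutation test cannot go below p = 0.33, so p-values rest on the spread shared across genes and groups. CPM are UMIs scaled to a class sum of 1000000, and limits of 3 counts cover counting error only. The SE of a log2 difference was derived from that difference and the edgeR test statistic, so it includes the spread between libraries. The SD in shares is over the 2 libraries. For shares, cells were thinned to 700 UMIs. The fit was tested on simulated data. DESeq2 1.42.0, other scalings, filters, clusterings and a gate on single cells were alternatives.

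The 9 genes and all lists were chosen with earlier results of these data known. Named genes were the 9 members, the 10 genes most correlated with Trem2 and up to 3 called genes per list and direction. The lists and their sizes were TREM2-TYROBP signalling (17), TREM family, ligands and sheddases (9), other LAM genes (26) and relatives and partners (27, of which 26 were in the files, Clec7a not analysed here). Classes of under 20 cells in a library were left out. Cell types in this report rest on rebuilt names and may differ from those of the study.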

Additional observations from a re-analysis of the deposited data

Results flagged for a closer look

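Itgax levels in macrophage-like cells placed the ob/ob-Veh libraries differently in the 2 depots. In eWAT both ob/ob-Veh libraries (41.6 and 36.6 CPM) lay above both WT-Veh libraries (35.1 and 32.5), and in iWAT both (17.4 and 4.02) lay below (24.2 and 20.7). The difference of the effects, iWAT minus eWAT, was -1.21 (SE 0.62, adjusted p = 0.467 by edgeR over 12 libraries), so it was not called. The fitted eWAT effect was 0.01 (SE 0.23, adjusted p = 0.977 by edgeR), was not called and was negative in 9 alternative settings, so an effect of opposite direction in the depots is not shown. The eWAT value depended on cluster 9, without which the eWAT ob/ob effect was -1.97. The depots were also not compared on like cells. In iWAT cluster 8, with 3573 cells led by Lyz1, Il1b, Ear2 and Ccr2, had fewer than 3 markers and was left unnamed, outside the macrophage-like sum, and unnamed iWAT cells held 31.9% of Itgax UMIs.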

How the results depend on the processing

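In eWAT macrophage-like cells the members called stayed at 8 in the ob/ob effect and 9 in the Rosi effect when each library was left out in turn. With 2 libraries a group, leaving out 1 leaves a lone library that is assumed to vary like the others. The shares of all genes called in such fits are not given here, so lost calls are not read as a result about the members. Over such fits the members called ranged from 0 to 8 (ob/ob) and 0 to 9 (Rosi) in iWAT macrophage-like cells, 5 to 7 and 5 to 9 in eWAT PVM-like cells, 0 to 5 and 0 to 7 in iWAT PVM-like cells, 7 to 8 and 8 to 9 in whole eWAT libraries, 0 to 6 and 0 to 8 in whole iWAT libraries, 0 to 0 for ob/ob-Rosi against WT-Veh in either depot, and 0 to 1 for the depot difference of either effect. Other counts that moved were those of ob/ob-Rosi against WT-Veh, at 1 in eWAT with DESeq2, without a low-count filter and with the replicate block, and 1 in iWAT without the filter. The iWAT PVM-like ob/ob effect called 3 with library size only, where the median log2 change of all genes was 0.18. Over the other fits by library size only that median lay between -0.33 and 0.33. Whole iWAT libraries called 8 in the ob/ob effect with DESeq2, and in the Rosi effect 7 without the filter and 0 with cells thinned to 700 UMIs. The depot difference called 1 for both effects with DESeq2, without the filter and at Leiden resolution 0.5, and 1 for the Rosi effect with the block. At Leiden resolution 0.5 this was a member other than Gpnmb, and in the other settings it was Gpnmb. Shares of all genes called in these settings are not given here, so the moves are not read as a result about the members. The cause was not tested for any of these moves.

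Of 648 ob/ob and Rosi effects of single members in macrophage-like cells under alternatives, 639 kept the direction and 45 crossed the threshold, of which 2 also turned in direction. The eWAT ob/ob effect of Itgax turned negative in 9 settings, at -0.042 without the filter, -0.10 without WT-Veh replicate 2, -0.17 without ob/ob-Veh replicate 1, -0.00060 and -0.0012 without ob/ob-Rosi replicate 1 and 2, -0.0013 with the members among the variable genes, -0.20 with macrophages chosen cell by cell, -1.80 at Leiden resolution 0.5 (adjusted p = 0.00121 by edgeR) and -1.97 without cluster 9, and leaving out 1 library gave -0.17 to 0.14. For ob/ob-Rosi against WT-Veh, where no member was called, Trem2 and Tyrobp turned in eWAT without ob/ob-Rosi replicate 2, with ranges of -0.12 to 0.41 and -0.055 to 0.43 when 1 library was left out. In iWAT Trem2 turned with thinning (-0.014), Gpnmb (range -0.61 to 0.41) and Spp1 (-1.21 to 0.87) without WT-Veh replicate 1, and Cd9 (-0.068 to 1.095) without WT-Veh replicate 2, at -0.060, or ob/ob-Rosi replicate 1.

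Deviations of same-numbered sums correlated by 0.0463 to 0.381 (macrophage-like), 0.263 to 0.435 (PVM-like) and 0.198 to 0.399 (whole libraries) in eWAT, and by 0.0952 to 0.741, 0.0954 to 0.741 and -0.195 to 0.651 in iWAT. In iWAT the values of 0.741, 0.741 and 0.651 were those between WT-Veh and ob/ob-Rosi, and the negative ones were those of whole libraries with ob/ob-Veh. The correlations were positive throughout eWAT. The labels do not say that a number marks a shared batch, so the numbers were not taken to pair the samples. A factor shared by same-numbered libraries was not tested. With the replicate block 8 and 9 members were called in macrophage-like cells of each depot, 8 and 9 (eWAT) and 5 and 6 (iWAT) in PVM-like cells, and 9 and 9 (eWAT) and 5 and 4 (iWAT) in whole libraries. The shares of all genes called with the block are not given here.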
